A study of Schizosaccharomyces pombe with 4 samples.

Results

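The 8 genes described here encode histone chaperones and a nucleosome remodeller of fission yeast (*Schizosaccharomyces pombe*): spt6, spt16, pob3, asf1, hip1, slm9, hip3 and fft3. They were taken by systematic name, with no threshold on a measured value, from a table of 6986 genes. All 8 were found there and all 8 passed the filter on low values. RNA-seq had been run on 2 libraries of the wild-type strain WT972 (WT) and 2 of SPKK1227, a strain deleted for set2 (set2d). Cells of both strains grew asynchronously to log phase in YEA medium at 30 °C. No treatment was applied and no further allele is named for either strain. The labels give 1 strain per group, so any other difference between the strains cannot be told apart from the deletion, and they do not say whether the 2 libraries of a group came from separate cultures.

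Set2 travels with RNA polymerase II and methylates histone H3 at a lysine of its tail over the bodies of transcribed genes. Histone chaperones hold histones off DNA and hand them back, so that nucleosomes opened by a passing polymerase or replication fork are rebuilt behind it. Spt6 carries H3-H4 and binds the elongating polymerase, and in yeasts it is needed for methylation by Set2. Spt16 and Pob3 form FACT, which handles H2A-H2B. Asf1 carries H3-H4 dimers to other chaperones. Hip1, Slm9 (also called Hip2) and Hip3 are subunits of HIRA, which deposits H3-H4 outside replication. Fft3 is a remodelling ATPase of the Fun30 family that limits histone turnover.

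The authors deposited log2 values of normalized read counts, in which nothing lies below a floor of 10 counts. Levels are printed here as normalized counts and differences as log2 values. The median tested gene had 5484 to 5904 normalized counts per library, and read depth itself is unknown. The set2 transcript checked the labels, with 10503 and 8665 normalized counts in WT against 2257 and 1448 in set2d. This is a log2 difference of -2.40 (SE 0.22, adjusted p = 0.00041 by limma). The set2d libraries kept set2 counts at 0.189 times the WT level, far above the floor, though the strain is labelled as deleted. The source of these remaining counts was not tested.

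None of the 8 genes changed between set2d and WT by limma with Benjamini-Hochberg adjustment over the 6633 genes tested. The count was 0 of 8, where 14.3% of all tested genes were called (11.6% as higher in set2d, 2.77% as lower). Without adjustment 0 of 8 had a p under 0.05, and 28.2% of all tested genes did. With 8 genes, a count of 0 is near that background. The log2 changes lay between -0.17 (hip1) and 0.16 (asf1), 5 below 0 and 3 above. Their median was -0.08, and that of all tested genes was 0.01. Their median absolute log2 change was 0.13, against 0.23 over all tested genes, and 40.0% of tested genes had an absolute change no larger than that of hip1. The widest bounds of the 95% intervals were -0.45 and 0.46, or 0.733-fold and 1.38-fold. No interval reached a log2 change of 1 in either direction. Smaller changes are not excluded by these intervals, and a p above the threshold does not show that a level was the same. All these values rest on the deposited scaling. With library medians aligned, the log2 changes of the 8 genes ran from -0.26 (hip1) to 0.07 (asf1), and hip3 turned negative (-0.05). The median of all tested genes was then -0.08.

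**Figure D1:**
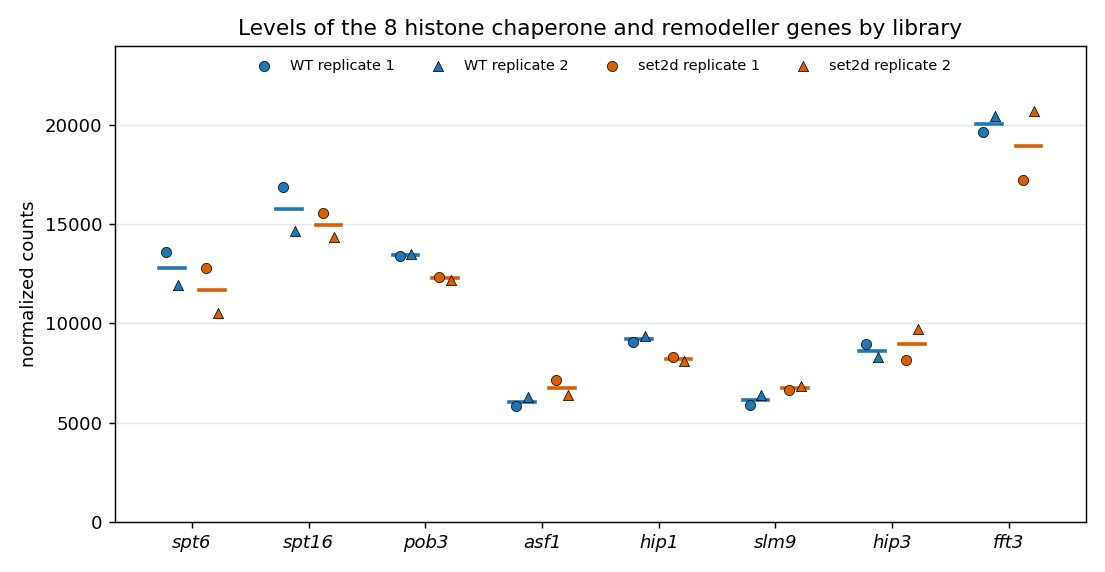
Normalized counts (linear axis from 0) of the 8 genes in each library, with circles for replicate 1, triangles for replicate 2 and a horizontal line at each group's mean. The libraries of WT (blue) and set2d (orange) overlap for spt6, spt16, hip3 and fft3, and the groups stand slightly apart for pob3, asf1, hip1 and slm9.

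The polymerase-linked chaperone spt6 (SPAC1F7.01c, chromosome I) had 13592 normalized counts in WT replicate 1 and 11958 in WT replicate 2. The set2d libraries, in the same order, had 12820 and 10535. The highest and the lowest of these belong to different groups, but set2d replicate 1 lay between the WT libraries, so the groups overlapped. The means were 12775 ± 1155 in WT and 11677 ± 1615 in set2d (SD, n = 2 in each group). The log2 change was -0.13 (95% interval -0.45 to 0.18, limma adjusted p = 0.575), and it was 0.01 without set2d replicate 2, so its direction rested on that library.

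Both FACT genes had small negative log2 changes. The larger subunit gene spt16 (SPBP8B7.19, chromosome II) had 16895 and 14650 normalized counts in WT and 15556 and 14340 in set2d. The groups overlapped, with a log2 change of -0.08 (-0.35 to 0.20, limma adjusted p = 0.733) that became 0.03 without WT replicate 1. Its partner pob3 (SPBC609.05, chromosome II) had 13397 and 13487 normalized counts in WT and 12346 and 12195 in set2d. Its replicates were the closest of the 8 genes, 0.0096 apart in WT and 0.018 in set2d on the log2 scale, and set2d stood below WT in each library. The log2 change was -0.13 (-0.38 to 0.12, limma adjusted p = 0.47). The ratio of spt16 to pob3 per kb of exon was 0.721 and 0.621 in the WT libraries and 0.721 and 0.673 in the set2d libraries. The ratio in set2d thus lay within the WT range. Reads of nop2, which lies opposite spt16, may be part of the spt16 count, so the ratio may not give the balance of the subunit transcripts.

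The H3-H4 chaperone gene asf1 (SPCC663.05c, chromosome III) had 5828 and 6268 normalized counts in WT and 7135 and 6378 in set2d. Both set2d libraries were above both WT libraries, but the lower of them exceeded the higher WT library by little. The log2 change was 0.16 (-0.15 to 0.46, limma adjusted p = 0.479), the highest of the 8. It was 0.29 between the libraries numbered 1 and 0.03 between those numbered 2.

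The log2 changes of the HIRA subunit genes differed in sign, and none of them passed. The gene hip1 (SPBC31F10.13c, chromosome II), for a subunit with WD repeats, had 9061 and 9382 normalized counts in WT and 8297 and 8086 in set2d. Both set2d libraries were lower, and the log2 change of -0.17 (-0.44 to 0.10, limma adjusted p = 0.381) was the lowest of the 8. The gene for the other WD-repeat subunit, slm9 (SPBC15D4.03, chromosome II), had 5861 and 6410 normalized counts in WT and 6667 and 6833 in set2d. Here both set2d libraries were higher, with a log2 change of 0.14 (-0.15 to 0.43, limma adjusted p = 0.525). The gene hip3 (SPBC31F10.14c, chromosome II), for the largest of these subunits by exon length, had 8967 and 8296 normalized counts in WT and 8153 and 9724 in set2d. The set2d libraries lay on either side of both WT libraries. The log2 change of hip3 was 0.05 (-0.26 to 0.35, limma adjusted p = 0.866). It was -0.05 with library medians aligned, -0.03 under quantile normalization, -0.01 without WT replicate 2 and -0.08 without set2d replicate 2.

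Since hip1 and slm9 had values of opposite sign, their ratio differed by more than either level. Per kb of exon, hip1 stood at 1.31 and 1.24 times slm9 in the WT libraries and at 1.06 and 1.01 times in the set2d libraries, and these groups did not overlap. The difference of the log2 ratio was -0.31, set2d minus WT. The pair was singled out after its values were seen, and with 2 libraries in each group a two-sided exact permutation test cannot give a p under 0.333. Antisense lncRNAs are annotated over 33.4% of hip1 (SPNCRNA.1638) and 64.3% of slm9 (SPNCRNA.5933, not measured). Their reads may be part of the counts, so the ratio may not give the balance of the subunit transcripts. The ratio of hip1 to hip3 was 1.85 and 2.08 in WT and 1.87 and 1.53 in set2d, which overlap. The remaining subunit gene, hip4 (SPBC947.08c), had 3782 and 3378 normalized counts in WT and 4562 and 3438 in set2d, with a log2 change of 0.15 (limma adjusted p = 0.641) that was -0.06 without set2d replicate 1.

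The remodeller gene fft3 (SPAC25A8.01c, chromosome I) had 19672 and 20449 normalized counts in WT and 17235 and 20708 in set2d. The set2d libraries held both the lowest and the highest of these values. The log2 change was -0.09 (-0.37 to 0.20, limma adjusted p = 0.699), and it was 0.05 without set2d replicate 1.

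**Figure D2:**
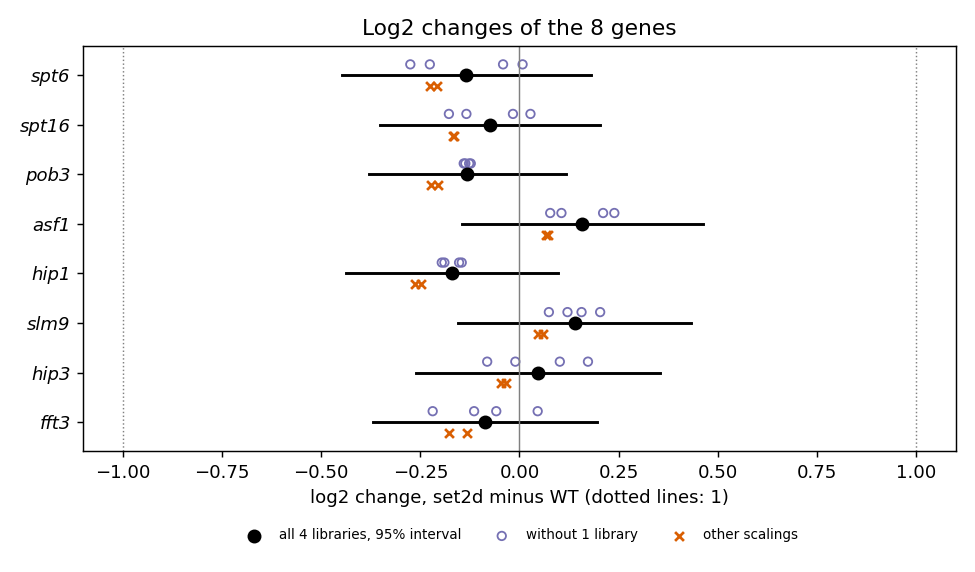
Log2 change of each gene, set2d minus WT, with its 95% interval from limma (black), the value without each library in turn (open circles) and the values under 2 other scalings (crosses). Every interval spans 0 and stays inside the dotted lines at 1 and -1, and for spt6, spt16, hip3 and fft3 the circles fall on both sides of 0.

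The groups did not overlap for 4 of the 8 genes, asf1 and slm9 with set2d above and pob3 and hip1 with set2d below. Over all tested genes the share without overlap was 57.7%, 31.5% with set2d above and 26.2% below. Read against that, 4 of 8 is near the background. In 6 of the 8 genes the sign of the difference was the same between the libraries numbered 1 and those numbered 2, the exceptions being hip3 (-0.14 and 0.23) and fft3 (-0.19 and 0.02). The median difference of the 8 was -0.12 in number 1 and -0.01 in number 2. Replicates of the 8 genes differed by a median of 0.11 in WT and 0.14 in set2d on the log2 scale, against 0.13 and 0.21 over all tested genes.

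Levels were compared between genes only per kb of exon, with lengths from the RefSeq ASM294v3 annotation. Reads from the opposite strand may be part of these levels, above all for spt16, which lies opposite nop2. In WT the order of normalized counts per kb ran from pob3 (7030) through fft3 (5555), spt16 (4718), asf1 (3594), hip1 (2985), spt6 (2913) and slm9 (2338) to hip3 (1523). The top was 4.62 times the bottom. Each step separated both libraries of one gene from both of the next except that between hip1 and spt6. The median of 5068 tested protein-coding genes was 3775 per kb, so 3 of the 8 genes lay above it and 5 below. In percentiles of these genes they ran from 15.8 for hip3 to 72.3 for pob3. In set2d the same genes held the same places at the top and bottom, from pob3 (6418) to hip3 (1577). Only spt6 (2662) and hip1 (2652) exchanged places, and their libraries overlapped there too.

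All 8 genes were over 500 kb from the nearest chromosome end in the ASM294v3 annotation, 2 on chromosome I, 5 on II and 1 on III. Closer than 100 kb to an end of chromosome I or II, 113 of 149 tested genes were called higher in set2d, or 75.8%. None of the 8 genes has a near-identical copy, at 95% identity over at least 50% of its length.

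Reads of opposite strands may have been counted together. In WT replicate 1 the count of adh1 was 855184, and that of the gene opposite it, SPCC13B11.02c, was 855154. Reads from a member and from RNA antisense to it can therefore not be told apart. All 8 genes have an opposite-strand feature in the ASM294v3 annotation. Of the 19 features that overlap them on either strand, 15 are lncRNAs, all on the opposite strand, and 13 of the 19 were not analysed here. The measured antisense lncRNAs were SPNCRNA.1638 within hip1 and SPNCRNA.1639, 90.0% of which lies within hip3. SPNCRNA.1638 had 1949 and 1672 normalized counts in WT and 1789 and 1333 in set2d. SPNCRNA.1639 had 4581 and 3630 in WT and 4279 and 4856 in set2d. Their log2 changes were -0.23 and 0.16 (limma adjusted p = 0.538 and 0.58).

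The whole of spt16 lies opposite nop2, an RNA methyltransferase gene of ribosome biogenesis. The level of nop2 was 48426 and 48927 normalized counts in WT and 58217 and 65912 in set2d, with a log2 change of 0.35 (limma adjusted p = 0.0824). Both set2d libraries were above both WT libraries for nop2, and this was not so for spt16. The part of nop2 reads in the spt16 count was not tested.

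Of the 20 measured genes that overlap the 8 genes or lie nearest to them on either side, 19 were tested. Of these 2 were higher, 1 was lower and 16 were not called, with a median log2 change of 0.10. Calls among all tested genes came to 14.3%, so 3 of 19 is near the background. The gene osr1 (SPCC663.06c), for a dehydrogenase, lies 169 bp from asf1 on the same strand. It rose from 1442 and 1517 normalized counts in WT to 3609 and 9893 in set2d, or by 2.01 on the log2 scale (SE 0.39, limma adjusted p = 0.0115). The set2d libraries differed widely, and the value was 1.29 without set2d replicate 2. On its other side asf1 overlaps SPCC663.18 by 0.832% of its length, and that gene had a log2 change of -0.21 (limma adjusted p = 0.242). Thus asf1 (0.16) lay between a gene that rose and a gene with a negative value.

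The RNA helicase gene has1, 356 bp from spt6 on the same strand, rose from 27959 and 23138 normalized counts in WT to 34168 and 36034 in set2d (log2 change 0.46, SE 0.12, limma adjusted p = 0.0411). The gene gpt2, for an enzyme of protein N-glycosylation, overlaps slm9 by 0.915% of slm9 on the same strand. It fell from 5869 and 5295 normalized counts in WT to 3912 and 3979 in set2d (log2 change -0.50, SE 0.14, limma adjusted p = 0.0487). The calls of has1 and gpt2 were lost without any one of the 4 libraries, with adjusted p-values up to 0.488 and 0.424.

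The genes hip1 and hip3 are themselves neighbours, 238 bp apart on the same strand, and had values of opposite sign. The other neighbours were not called in the main limma fit. Under other settings, described at the end, SPNCRNA.972, nop2, SPNCRNA.427, cwf4 and atp15 were called. Beside hip1 and hip3, cwf4 was at 0.38, tma20, which overlaps hip1 by 4.11% of hip1, at -0.02, and the ATP synthase gene atp15 at -0.41 on the log2 scale. Near spt6 the lncRNA SPNCRNA.972 was at 0.34. Of this lncRNA 92.7% lies opposite mrc1, also at 0.34, so reads of mrc1 may be part of its count. Near spt16 the lncRNA SPNCRNA.427 was at -0.78, and between -1.35 and -0.22 with single libraries left out, and ubp3 was at 0.08. Around pob3, caf5 was at 0.19 and the ribosomal RNA gene SPRRNA.41 at 0.56, the latter between 0.19 and 0.92 with single libraries left out. The ribosomal protein gene rpl39 beside asf1 was at 0.10, and gsf1 beside slm9 at -0.01. The snRNA gene snu1 on the other side of slm9 was at the floor of 10 in all 4 libraries. SPAC25A8.03c and atg14, on the 2 sides of fft3, were at 0.19 and -0.04.

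**Figure D3:**
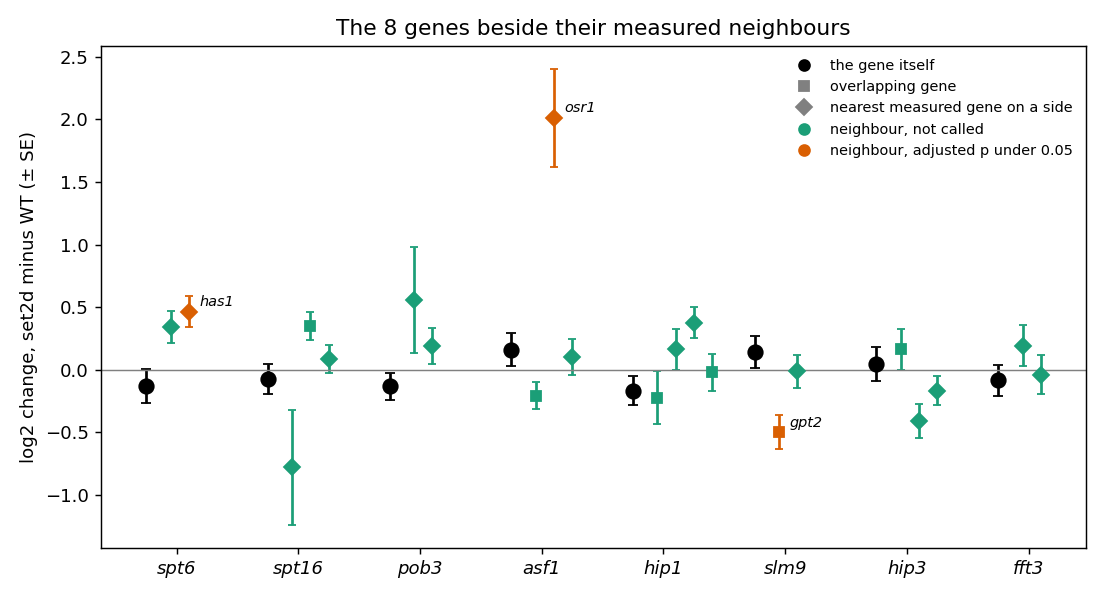
Log2 change, set2d minus WT, with its standard error, for each of the 8 genes (black circles) and for its measured overlapping genes (squares) and nearest measured genes (diamonds). Of the neighbours, osr1 beside asf1 stands highest at 2.01, has1 and gpt2 are the other called neighbours, and the black circles stay near 0.

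Other genes of histone handling and elongation were read from lists chosen by function, with earlier results of these data known. By limma, 0 of 17 other histone chaperone genes were called, where 14.3% of all tested genes were, and 1 of 17 had an unadjusted p under 0.05, against 28.2% of all. Their log2 changes ran from -0.27 to 0.47, with a median of -0.10. The largest was that of sim3, for a chaperone of the centromeric histone CENP-A, with 4884 and 5484 normalized counts in WT and 7456 and 6862 in set2d (limma adjusted p = 0.0552). The nucleoplasmin-like fkbp39, now ani1, was at 0.25 (limma adjusted p = 0.198). The subunits of CAF-1, the chaperone that deposits H3-H4 at replication forks, were at -0.15 (pcf1), -0.10 (pcf2) and 0.09 (pcf3). Whether all 17, among them hat1 and iws1, act as histone chaperones was not checked here.

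Among 10 nucleosome remodeller genes other than fft3, 4 were higher in set2d and 0 lower, where 11.6% and 2.77% of all tested genes were. Because the list was drawn up with earlier results known, this count is not a test of remodeller genes. The median of the list was 0.22 on the log2 scale (0.27 between the libraries numbered 1, 0.29 between those numbered 2). The gene mit1, for the remodeller of the SHREC complex, rose from 2552 and 2754 normalized counts in WT to 6895 and 8596 in set2d (log2 change 1.54, SE 0.16, limma adjusted p = 0.000631). The helicase gene irc20 rose from 4788 and 5048 to 10674 and 12642 (log2 change 1.24, SE 0.13, limma adjusted p = 0.00079). Whether irc20 acts as a nucleosome remodeller was not checked here. The CHD family gene hrp1 rose from 11149 and 11576 to 23409 and 25755 (log2 change 1.11, SE 0.11, limma adjusted p = 0.000527). In these 3 genes every set2d library was above every WT library. Opposite-strand lncRNAs that were measured cover 34.6% of mit1 and 57.8% of hrp1, and they rose too, by 2.17 and 1.25 on the log2 scale, so the strand of these reads cannot be told apart.

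The fourth, ino80, rose from 9481 and 10083 normalized counts in WT to 13305 and 15382 in set2d (log2 change 0.55, SE 0.12, limma adjusted p = 0.0211). It overlaps the deleted gene set2 by 151 bp on the opposite strand, and leaving out any 1 library ended its call. The Fun30 relatives of fft3, fft1 and fft2, had log2 changes of 0.22 and 0.08 and did not pass (limma adjusted p = 0.392 and 0.743). Against these values fft3 stood at -0.09. The difference between fft3 and the other remodellers was not tested.

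Of 15 transcription elongation genes 1 was higher and 0 lower, where 11.6% and 2.77% of all tested genes were. The median log2 change of the list was -0.0023. The kinase gene lsk1, for a kinase of the polymerase tail, rose from 6693 and 7391 normalized counts in WT to 19015 and 18692 in set2d (log2 change 1.42, SE 0.12, limma adjusted p = 0.000209). Spt5, which like Spt6 rides with the polymerase, had a transcript log2 change of 0.24 (limma adjusted p = 0.336). Of 7 genes of the H3 lysine methylation and deacetylation pathway, set2 was lower and cph1 was higher, against the same shares of all tested genes. As set2 is the deleted gene, its call says nothing about the rest of the list. The gene cph1, for a PHD-finger partner of the Clr6 deacetylase, rose from 7376 and 7029 to 15354 and 11215 (log2 change 0.87, SE 0.16, limma adjusted p = 0.00903). Its call was lost without set2d replicate 1, and an antisense lncRNA that covers 32.7% of it rose by 0.88 on the log2 scale. The list's median, with set2 included, was -0.07.

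HIRA is known in fission yeast for keeping the Tf2 retrotransposons silent, so these were read beside the HIRA genes. Of 13 Tf2 elements 7 were above the floor often enough to be tested. Of these 1 was higher and 0 lower, where 11.6% and 2.77% of all tested genes were. Tf2-11 rose from 39.5 and 32.8 normalized counts in WT to 257 and 276 in set2d (log2 change 2.89, SE 0.34, limma adjusted p = 0.0013). It lies 100 to 200 kb from an end of chromosome II, and at that distance 29.3% of 229 tested genes of chromosomes I and II were called higher. The other 6 tested elements ran from -0.12 to 0.72, none of them called, and the median of the 7 was 0.45. Counts of these 6 were low, some of them at or near the floor of 10. Tf2-9, at 0.72, had 10 and 10.3 normalized counts in WT and 22.3 and 12.6 in set2d. Tf2-13, whose value is the median, had at most 31.7 in any library, and its groups overlapped. The median therefore does not show a general rise of Tf2 elements. Tf2 copies are nearly identical, so reads cannot be assigned to 1 copy with certainty. That only 7 of 13 passed the filter means that the median does not describe all elements.

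**Figure D4:**
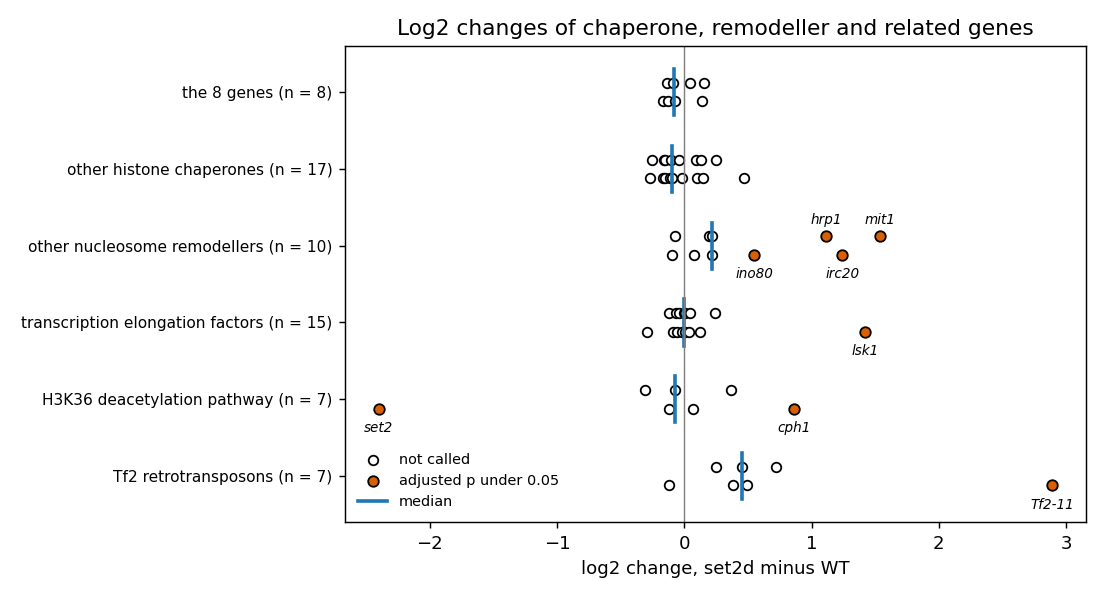
Log2 changes, set2d minus WT, of the 8 genes and of the tested genes of 5 lists, 1 point per gene, with the median as a blue bar and genes at a limma adjusted p under 0.05 filled and named. No point is filled among the 8 genes or the 17 other chaperones, and 4 are filled among the 10 other remodellers.

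By likeness of profile, the genes nearest to the mean of hip1, slm9 and hip3 were the histone acetyltransferase gene mst1 (distance 0.016), SPNCRNA.132 (0.018) and whi2 (0.023). Distance is Euclidean over 4 libraries on log2 values centred per gene, among 6447 genes with a mean level of at least 50. Their log2 changes were -0.0084, 0.0096 and 0.014. Opposite-strand genes cover 63.0% of mst1 (rpm2), 77.4% of SPNCRNA.132 (rec7) and 86.5% of whi2 (SPNCRNA.796). Reads of those genes may be part of these profiles. Nearest to the mean of spt16 and pob3 were the kinase gene csk1 (0.0098), sfb3 (0.014) and the methyltransferase subunit gene ash2 (0.022), at -0.11, -0.11 and -0.08. The profiles of both groups are nearly flat, so nearness to them marks flat profiles over these 4 libraries.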

How the data were processed

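Total RNA of asynchronous cells was sequenced in 4 libraries. The submitters' processing notes name build ASM294v2, the aligner STAR (2.5.4b) and the counter featureCounts (1.5.0-p1). How values were normalized, the annotation and the strand setting were not given in the sources used. The authors deposited 1 log2 value of normalized counts per gene and library, floored at 10, so changes near the floor are understated. Locus tags were matched to RefSeq ASM294v3, 6840 of 6986. Because that is another build, it gave names, neighbours, lengths and end distances only, and no sequences or coordinates are printed.

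The 6633 genes that exceeded the floor in 2 or more libraries (353 were left out) were fitted with limma 3.58.1 (R 4.3.3) with a mean-variance trend, as set2d minus WT, with two-sided p-values adjusted over all 6633 by Benjamini-Hochberg and called under 0.05. The design had 2 residual and 6.16 prior degrees of freedom, and p-values reflect only the scatter among the 4 libraries, possibly technical. Intervals are 95% intervals from that fit. The fit was also run on simulated data with noise drawn independently for each library, so that run does not cover a pairing of libraries by number. No conclusion is drawn from it. Near-identical copies were sought with BLAST 2.17.0.

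The members, the context lists and the alternatives were chosen with earlier results of these data known. Named are the 8 members, set2, hip4, all overlapping and nearest measured genes, up to 4 called genes of each list (if none was called, the 2 of smallest p), and the 3 genes nearest in profile to the HIRA and to the FACT genes. Further members of lists (the CAF-1 genes, fft1, fft2 and spt5) were named after their values were seen. Alternatives were other scalings, filters and variance models, a replicate block, and each library left out.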

Additional observations from a re-analysis of the deposited data

How the results depend on the processing

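None of the 8 genes was called under any of the 11 alternatives, the smallest adjusted p of the 88 limma fits of a member being 0.16. With no filter, pob3 and hip1 had unadjusted p-values of 0.0455 and 0.0473. The signs of pob3, asf1, hip1 and slm9 held in all 11. Without 1 library, spt6 ranged from -0.28 to 0.0080, spt16 from -0.18 to 0.0279, hip3 from -0.0813 to 0.17 and fft3 from -0.22 to 0.0461, and hip3 was -0.0461 with library medians aligned and -0.0336 under quantile normalization. Counts over all genes, 767 higher and 184 lower, were 177 and 21 with no filter and 499 and 103 without a trend. With library medians aligned 617 were higher and 343 lower. Without 1 library the genes higher numbered 324 to 488 and those lower 45 to 86. Adding the replicate number as a block gave 1380 higher and 847 lower, none of them a member, and it also called sim3 and the neighbours SPNCRNA.972, nop2, SPNCRNA.427, cwf4 and atp15 (adjusted p = 0.0135, 0.0205, 0.0174, 0.00536 and 0.00266). The last was called with library medians aligned too (adjusted p = 0.0416). In the block fit the limma adjusted p of set2 was 4.1e-71, which 4 libraries cannot bear out. The counts and adjusted p-values of the block fit can therefore not be taken at face value. Titles of same-numbered libraries share a prefix whose meaning the labels do not give, so a pairing by batch or day is possible but not stated, and deviations of same-numbered libraries correlated across genes at 0.451. Of other named genes, hrp1, irc20, lsk1 and Tf2-11 stayed called in all 11 alternatives, while mit1 and set2 lost the call with no filter, at 0.0504 and 0.0607. The call of ino80 was lost in 6, that of has1 in 8, that of gpt2 in 6, that of cph1 in 3 and that of osr1 in 2. Values near 0 changed sign. With library medians aligned and under quantile normalization, ubp3 was at -0.0081 and -0.0028, SPNCRNA.132 at -0.0823 and -0.137 and whi2 at -0.0782 and -0.0727. Without 1 library the ranges were -0.0043 to 0.172 for ubp3, -0.0560 to 0.352 for hip4, -0.0968 to 0.295 for rpl39, -0.177 to 0.131 for tma20, -0.0072 to 0.328 for SPNCRNA.1639, -0.108 to 0.0820 for gsf1, -0.165 to 0.0833 for atg14, -0.0546 to 0.0378 for mst1, -0.0444 to 0.0636 for SPNCRNA.132 and -0.0203 to 0.0476 for whi2. The cause of these moves was not tested. Depth is unknown, so no counting error is given.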
